A study of Mus musculus with 2 samples.

Results

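The genes examined encode ion channels that carry potassium, sodium and calcium across the cell membrane, together with their accessory subunits. They were the protein-coding genes of the mm10 RefSeq gene table whose symbols start with Kcn and a letter, with Scn, a number and a or b, or with Cacna, Cacnb or Cacng. The rule left out 1 symbol and took 133 of the 20587 protein-coding genes analysed. It used gene names only and no measured value. Of the 133 genes, 59 encode principal subunits of voltage-gated channels, by the symbols Kcna to Kcnd, Kcnf, Kcng, Kcnh, Kcnq, Kcns, Kcnv, Scn alpha and Cacna1. The rest encode other potassium channels, among them channels activated by calcium or sodium, inward rectifiers (Kcnj) and two-pore channels (Kcnk), or accessory proteins. Some of these, such as Kcnma1, also sense voltage.

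Trimethylation of histone H3 at lysine 4 (H3K4me3) was profiled by chromatin immunoprecipitation and sequencing (ChIP-seq) in the mouse embryonic stem cell line E14TG2a.4. The line is male, of strain 129/Ola and, per the labels, of embryonic stage with an age of 3.5 days. There was 1 group with 2 biological replicates, no treatment and no second cell type, which leaves nothing to compare between groups, and the replicates share 1 cell line. The data were lists of peaks, and the sequencing depth behind them is unknown. Among marker genes, against 68.4% of all protein-coding genes marked and a median signal of 43.1 over them, the stem cell genes were marked at 9 of 10 promoters, all but that of Esrrb, with a median of 56.7. Neuronal genes were marked at 8 of 9 (median 30.0), muscle genes at 5 of 8 (11.5) and fibroblast genes at 6 of 9 (14.7). Of the fibroblast genes, Vim had 35.8, and Col3a1, Dcn and Lum were unmarked. These values are from the replicated mm10 list. Esrrb had a peak of 2.85 at its 5′ end in mm10 replicate 2. In the pooled mm9 list, read at other annotated starts, 9 of 10 stem cell genes were also marked. There Esrrb had 11.01 over 59000 bp, and Nanog was unmarked.

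A voltage-gated channel opens when the membrane potential changes. Its pore is formed by large principal subunits, and smaller auxiliary subunits set how it is trafficked and how fast it opens and closes. Such channels produce the action potentials of neurons, heart and skeletal muscle. H3K4me3 lies over the start of active genes and, in embryonic stem cells, also over many silent developmental genes that carry the repressive mark H3K27me3 as well, mostly at promoters rich in CG dinucleotides. An H3K4me3 peak is therefore no measure of transcription.

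Promoter sequences are shown first, because the marked and unmarked channel genes differed in their CG content. They come from RefSeq promoters on GRCm38.p6 (mm10), each spanning 250 bases before to 50 bases after an annotated start. They are written 5′ to 3′ on the strand of the gene, with every CG dinucleotide in capitals. The first belongs to Kcnk5, the pore-forming gene with the highest promoter signal, the second to Kcnn1, whose domain was the widest, and the third to Kcnma1. Kcnma1 had the highest signal among the genes with a promoter sequence whose 5′-most annotated start on mm9 was classed as CpG-poor.
Kcnk5 promoter, chr14:20181733-20182032, minus strand: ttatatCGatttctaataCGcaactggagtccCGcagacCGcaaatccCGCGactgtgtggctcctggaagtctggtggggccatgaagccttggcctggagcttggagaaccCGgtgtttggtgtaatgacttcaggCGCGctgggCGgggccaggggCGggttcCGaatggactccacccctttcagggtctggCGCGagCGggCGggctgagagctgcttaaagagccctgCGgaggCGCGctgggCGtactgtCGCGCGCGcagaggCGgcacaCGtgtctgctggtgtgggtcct
Kcnn1 promoter, chr8:70863209-70863508, minus strand: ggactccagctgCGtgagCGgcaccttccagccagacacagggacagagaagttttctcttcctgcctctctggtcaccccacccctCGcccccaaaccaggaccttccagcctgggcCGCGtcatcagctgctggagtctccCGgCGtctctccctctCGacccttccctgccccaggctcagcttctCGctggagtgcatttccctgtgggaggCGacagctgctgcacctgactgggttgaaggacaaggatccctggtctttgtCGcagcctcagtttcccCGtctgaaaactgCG
Kcnma1 promoter, chr14:24004156-24004455, minus strand: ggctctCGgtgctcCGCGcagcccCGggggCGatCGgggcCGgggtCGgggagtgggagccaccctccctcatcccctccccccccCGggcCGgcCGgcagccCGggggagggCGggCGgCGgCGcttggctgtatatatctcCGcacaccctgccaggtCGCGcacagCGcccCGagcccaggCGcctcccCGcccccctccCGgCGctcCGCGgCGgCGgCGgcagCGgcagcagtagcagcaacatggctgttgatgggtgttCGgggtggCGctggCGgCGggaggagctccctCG
These 3 sequences held 26, 13 and 36 CG dinucleotides and lay under peaks in both replicates. The Kcnn1 and Kcnma1 starts lay 2433 and 905 bp inside the 5′ end of the gene table.
The next 3 sequences belong to genes without a peak at their 5′ end. Kcna2 is the first of these in alphabetical order among CpG-rich genes with a promoter sequence, and Cacna1f and Cacna1s are the first CpG-poor pore-forming ones.
Kcna2 promoter, chr3:107101317-107101616, plus strand: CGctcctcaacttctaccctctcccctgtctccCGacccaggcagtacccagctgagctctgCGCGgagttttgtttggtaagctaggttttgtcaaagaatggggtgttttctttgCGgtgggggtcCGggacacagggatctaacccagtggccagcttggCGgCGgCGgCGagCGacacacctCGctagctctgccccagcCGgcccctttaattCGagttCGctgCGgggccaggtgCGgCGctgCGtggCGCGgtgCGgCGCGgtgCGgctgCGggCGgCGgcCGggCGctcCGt
Cacna1f promoter, chrX:7606853-7607152, plus strand: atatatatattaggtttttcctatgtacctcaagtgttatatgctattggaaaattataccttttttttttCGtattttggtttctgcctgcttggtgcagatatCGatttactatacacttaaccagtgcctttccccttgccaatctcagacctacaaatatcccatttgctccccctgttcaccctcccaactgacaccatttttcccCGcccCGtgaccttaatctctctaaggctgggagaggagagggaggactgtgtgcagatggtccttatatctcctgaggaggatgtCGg
Cacna1s promoter, chr1:136052561-136052860, plus strand: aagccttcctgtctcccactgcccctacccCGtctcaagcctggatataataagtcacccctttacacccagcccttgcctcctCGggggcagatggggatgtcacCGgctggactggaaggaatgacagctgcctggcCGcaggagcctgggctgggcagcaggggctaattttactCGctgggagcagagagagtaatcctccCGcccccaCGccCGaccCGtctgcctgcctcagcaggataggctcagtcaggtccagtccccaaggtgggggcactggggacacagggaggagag
They held 31, 5 and 9 CG dinucleotides. The Kcna2 start lies 10684 bp inside the 5′ end of the gene table and was itself marked, with a signal of 16.7 in the replicated list, 16.9 in replicate 1 and 14.2 in replicate 2. The starts of Cacna1f and Cacna1s were unmarked.

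Promoters were taken as the gene's 5′ end with 1 kb to each side, and a gene counts as marked where a peak of the authors' replicated mm10 list touches that window. By this rule 102 of the 133 channel genes were marked (76.7%), against 68.4% of all protein-coding genes. Replicate 1 alone gave 101 channel genes (75.9%, against 68.7% of all genes) and replicate 2 alone 104 (78.2%, against 68.6%), a mean share of 77.1% ± 1.59 (SD, n = 2). The pooled mm10 list also gave 104 genes, against 69.8% of all genes. The share of channel genes thus lay above the background in each of these lists. The 59 principal subunits of voltage-gated channels were marked at 45 promoters (76.3%), close to the share of the whole set.

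The signal value of a peak is the authors' ratio of ChIP over control, and each gene was given the highest value at its promoter. Marked channel genes had a median of 22.0 in the replicated list, 20.1 in replicate 1 and 17.6 in replicate 2. All marked protein-coding genes had medians of 43.1, 38.5 and 36.8 in the same lists. The mean of the replicate medians of the channel genes was 18.8 ± 1.73 (SD, n = 2), and both replicate medians of all genes lay far above it. Of the 102 marked channel genes, 7 (6.86%) exceeded the median of all marked genes, 2 exceeded their 75th percentile of 57.8, and 0 exceeded their 90th percentile of 66.9. Of the 102 genes, 43 (42.2%) exceeded the 25th percentile of all marked genes, 23.7. Channel promoters were therefore marked at least as often as the average gene, but mostly with low values. Signals under 10 were found at 20 of them, and the share of all marked genes under 10 was not computed.

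**Figure D1:**
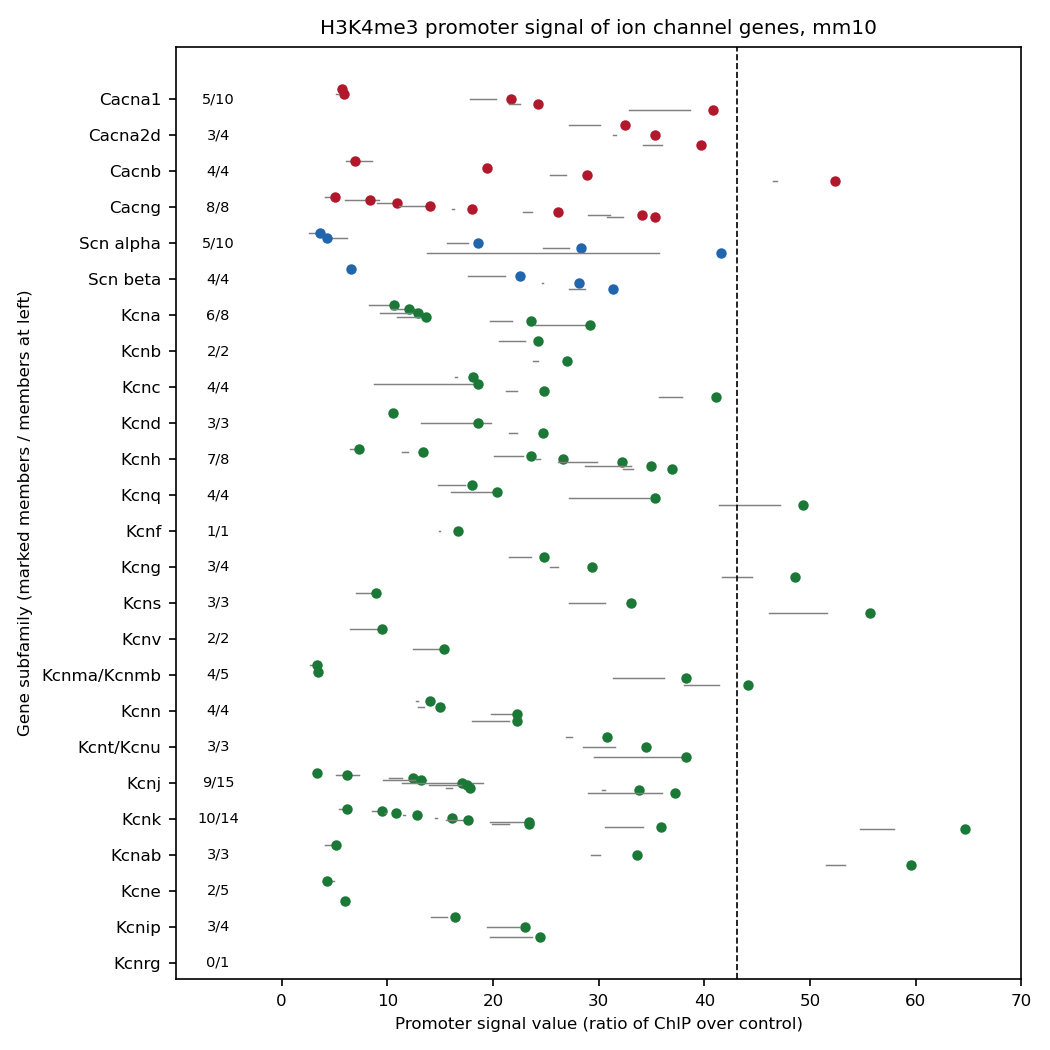
Promoter signal (ratio of ChIP over control, horizontal axis) of the marked channel genes by subfamily (vertical axis) in the mm10 lists. Points are values of the replicated list in red for calcium, blue for sodium and green for potassium channel genes, grey lines join the values of the 2 replicates, numbers at the left give marked genes of all genes, with a dashed line at 43.1, the median over all marked protein-coding genes. Only 7 points lie to the right of that line, and the highest is a Kcnk gene at 64.7.

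The mm9 lists gave a different picture of the levels. These are broad regions with a ratio as signal value, and what the ratio is taken over is not stated. They were read at every protein-coding start of GENCODE vM1. The pooled mm9 list marked 109 of the 133 genes (82.0%), against 71.5% of all genes. The mm9 list of replicate 1 marked 107, against 70.8% of all genes, and that of replicate 2 marked 105, against 70.3%. The median mm9 signal of marked channel genes was 13.8, against 15.9 for all marked genes, and 46 of the 109 (42.2%) exceeded the latter. The low rank of channel promoters in the narrow mm10 peaks was thus much smaller in the broad mm9 regions.

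The same held within classes of CpG content. High-CpG promoters (HCP) have a 500 bp window with an observed-to-expected CG ratio over 0.75 and a GC content over 55 percent near their 5′-most vM1 start, low-CpG promoters (LCP) have no window over 0.48, and the rest are intermediate (ICP). Among HCP genes the marked channel genes had a median mm10 signal of 24.9 against 51.3 for all marked genes, and 3 of 41 exceeded the latter. On mm9 the medians were 19 and 18.2, and 25 of 45 channel genes exceeded the median of all. Among ICP genes the mm10 medians were 20.4 and 35.7 and the mm9 medians 13.4 and 14.3. Among LCP genes they were 12.9 and 15.4 on mm10 and 8.97 and 8.93 on mm9. The mm9 replicate lists gave HCP medians of 22.5 for channel genes and 23.0 for all genes in replicate 1, and of 21.4 and 21.8 in replicate 2. The gap between channel genes and all genes on mm10 was thus widest at CpG-rich promoters, where the mm9 medians lay close together, in the opposite direction in the pooled list and in the same direction in both replicate lists.

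**Figure D2:**
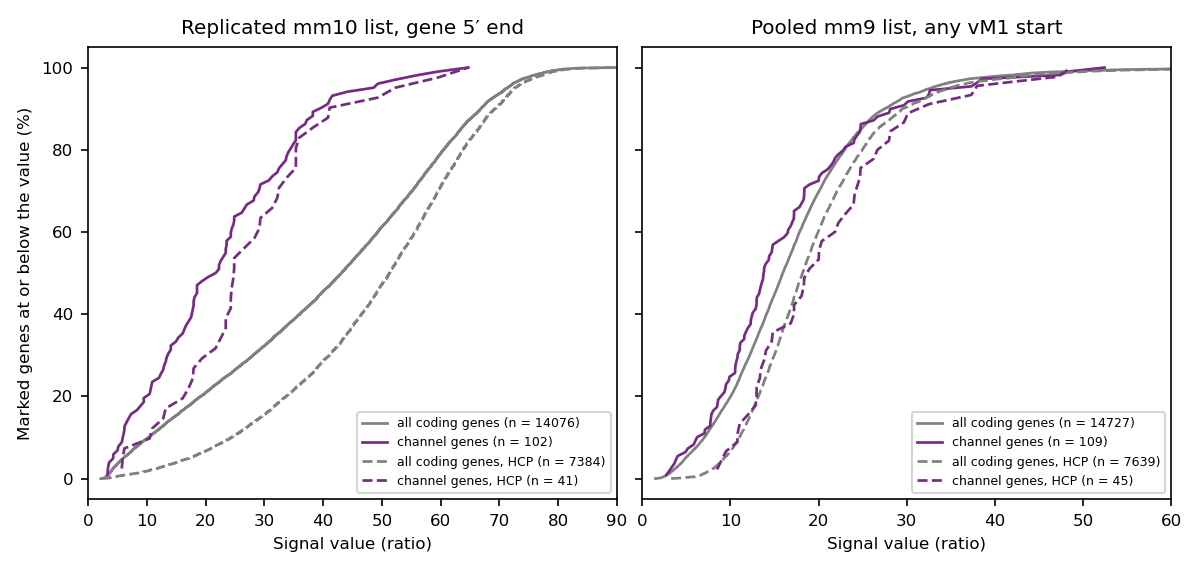
Cumulative share of marked genes (vertical axis, percent) at or below a promoter signal (horizontal axis, ratio) for channel genes in purple and all protein-coding genes in grey. Solid lines are all classes and dashed lines HCP genes, with the replicated mm10 list at the left and the pooled mm9 list at the right. The curves are far apart on mm10, with medians of 22.0 and 43.1, and close on mm9, with medians of 13.8 and 15.9.

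The share of marked channel genes also depended on CpG class. On mm10, 41 of 45 HCP channel genes were marked (91.1%, against 96.3% of all HCP genes), as were 35 of 42 ICP genes (83.3%, against 86% of all) and 26 of 46 LCP genes (56.5%, against 27.6% of all). On mm9 the counts were 45 of 45 HCP genes (against 99.7%), 40 of 42 ICP genes (95.2%, against 90.5%) and 24 of 46 LCP genes (52.2%, against 31%). On mm10 the share of channel genes thus exceeded that of all genes in the LCP class only, and on mm9 in all 3 classes, by the most in the LCP class. When the class was taken from the RefSeq promoter sequence, 29 of 53 LCP channel genes were marked (54.7%, against 31.2% of all), beside 21 of 23 HCP genes (91.3%, against 96.3%) and 21 of 23 ICP genes (91.3%, against 91.5%). A class read at the 5′-most vM1 start can differ from the promoter that carries the peak, as in Kcnma1, classed LCP, whose RefSeq promoter printed above holds 36 CG dinucleotides.

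The counts of CG letters in the RefSeq promoters gave the same ordering. The table holds 135 starts of 99 channel genes and no entry for the other 34. Of these starts 99 were marked, 73.3% of them, against 67.9% of all 21263 protein-coding starts. Marked channel starts held a median of 16 CG and unmarked ones 4, while marked and unmarked starts of all genes held 20 and 2. With 20 or more CG, 42 of 42 channel starts were marked (against 99% of all), with 10 to 19 CG 21 of 22 (against 95.2%), with 5 to 9 CG 23 of 38 (against 56.5%), and with 0 to 4 CG 13 of 33 (against 14.3%). A start counted as marked where a peak lay within 1 kb, so starts close together can share a peak. At Kcnk2 a start with 3 CG had the same signal, 19.6, as a start with 33 CG, and all 4 Kcnc2 starts had 18.1. The motif TATAAA, searched on both strands, was found in 0 of the 99 marked channel starts and in 7 of the 36 unmarked ones, beside 6.68% and 25.1% of marked and unmarked starts of all genes. GGGCGG on either strand, which can overlap a counted CG, was found in 56 of the 99 marked and 5 of the 36 unmarked channel starts, beside 64.6% and 7.42% of all. CCAAT was found in 27 marked and 12 unmarked channel starts, beside 37.4% and 39.9% of all.

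Calcium channel pore genes of the Cacna1 subfamily were marked at 5 of 10 promoters, with a median signal of 21.7. Cacna1b, the pore of N-type channels of nerve terminals, had the highest value, 40.8 in the replicated list, 38.7 in replicate 1 and 32.9 in replicate 2. Cacna1g, a low-voltage-activated T-type pore, had 24.3, with 21.5 and 22.5 in the replicates. Cacna1i, another T-type pore, had 21.7, with 20.3 and 17.9. Cacna1a, the P/Q-type pore, had only 5.90, with 5.14 and 5.36 in the replicates, and Cacna1e, the R-type pore, 5.75, with 5.38 and 5.78. Both belonged to the 20 marked channel genes with signals under 10. The strongest peak inside Cacna1a reached 46.6 and lay 76039 bp from its 5′ end. On mm9 all 3 vM1 starts of Cacna1a were marked, with 22.2 in the pooled list, 24.96 in replicate 1 and 22.7 in replicate 2. The pooled value lay above the mm9 median of 15.9 over all marked genes, whereas that of Cacna1e, 8.48, lay below it. The low mm10 value of Cacna1a thus holds for the 5′ end of the gene table. The genes of L-type pores, Cacna1c, Cacna1d, Cacna1f and Cacna1s, had no peak at their 5′ end, and neither did the T-type gene Cacna1h.

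The unmarked Cacna1 genes fell into 2 kinds. Cacna1h had a peak of 49.2 with its summit 2785 bp inside the gene, and its mm9 starts were marked with 48.6 in the pooled list, 62.0 in replicate 1 and 42.2 in replicate 2. Cacna1c, the cardiac and neuronal L-type gene, had a peak at an inner RefSeq start with 57 CG, at a signal of 11.9 (12.2 and 11.1 in the replicates), while its other 2 starts, with 7 and 3 CG, were unmarked. The strongest peaks inside Cacna1c and Cacna1d, 65.6 and 76.3, lay at the RefSeq starts of other genes, Dcp1b and Dcp1a. Cacna1f, the retinal L-type gene, and Cacna1s, the voltage sensor of skeletal muscle, were unmarked at every start examined, except that replicate 2 on mm9 had a value of 10.3 at Cacna1s. The nearest replicated peak on mm10 lay 1118 bp from the 5′ end of Cacna1s and 1643 bp from that of Cacna1f. Both genes were marked with a window of 2 kb. The 5′ end of Ccdc22 lies 1683 bp from that of Cacna1f.

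Cacna1d is shown in full, since its starts differed most in CG content among the channel genes with marked and unmarked starts. It was chosen after its values were seen. Its outer start equals the 5′ end of the gene table and its inner start lies 137670 bp downstream.
Cacna1d promoter at the inner start, chr14:30353437-30353736, minus strand: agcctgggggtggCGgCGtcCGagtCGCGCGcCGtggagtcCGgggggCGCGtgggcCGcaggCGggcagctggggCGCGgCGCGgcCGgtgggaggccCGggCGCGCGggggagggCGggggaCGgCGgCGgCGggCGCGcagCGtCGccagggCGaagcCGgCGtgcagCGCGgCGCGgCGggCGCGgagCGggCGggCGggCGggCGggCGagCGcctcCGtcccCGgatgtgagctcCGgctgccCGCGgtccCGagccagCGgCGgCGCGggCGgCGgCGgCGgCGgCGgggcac
Cacna1d promoter at the outer start, chr14:30491107-30491406, minus strand: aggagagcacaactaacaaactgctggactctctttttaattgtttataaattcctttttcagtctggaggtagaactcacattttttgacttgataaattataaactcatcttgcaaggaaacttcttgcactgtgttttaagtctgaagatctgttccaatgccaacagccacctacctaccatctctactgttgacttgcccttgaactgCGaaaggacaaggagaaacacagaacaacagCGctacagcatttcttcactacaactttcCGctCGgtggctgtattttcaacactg
The inner start holds 63 CG dinucleotides and no TATAAA, and was marked with 24.0 in the replicated list, 20.8 in replicate 1 and 21.8 in replicate 2. The outer start holds 4 CG and a TATAAA and was unmarked in both replicates. Over all 24 channel genes with more than 1 RefSeq start, 10 had both marked and unmarked starts, and in 9 of them a marked start held the most CG. Among all protein-coding genes, 647 of 2761 with more than 1 start had both marked and unmarked starts. In 597 of these 647 (92.3%) a marked start held the most CG. The exception was Kcnip4, whose marked and unmarked starts both held 7 CG.

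Auxiliary calcium channel genes were marked at 15 of 16 promoters, with a median signal of 26.2. All 4 genes of the cytoplasmic beta subunits (Cacnb), which bring the pore to the membrane, and all 8 gamma subunit genes (Cacng) were marked, as were 3 of 4 alpha2delta genes (Cacna2d). Cacnb1, the beta subunit of skeletal muscle, had 52.3, with 46.5 in replicate 1 and 46.9 in replicate 2, and its 5′ end lies 1031 bp from that of the ribosomal protein gene Rpl19, so the peak cannot be assigned to 1 of them. Cacna2d2 had 39.7, with 36 and 34.2 in the replicates, Cacna2d3 had 35.4, with 31.3 and 31.6, and Cacna2d1 had 32.5, with 30.1 and 27.2. The gamma genes ranged from 5.03 at Cacng8 to 35.4 at Cacng4. Cacng2, whose product stargazin is best known as an auxiliary subunit of AMPA-type glutamate receptors, had 18, with 16.2 and 16.3. Cacna2d4, a retinal subunit, was the 1 unmarked gene of the group.

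Sodium channel alpha genes (Scn1a to Scn11a), which form the pore that drives the upstroke of the action potential, were marked at 5 of 10 promoters, with a median of 18.5. Scn8a, a neuronal gene, had 41.6 in the replicated list and 35.7 in replicate 1 but 13.7 in replicate 2. In replicate 2 the domain was split, and a second peak of 37.8 started 1014 bp downstream of the 5′ end, just outside the window. Scn9a, expressed in sensory neurons, had 18.5, with 15.7 and 17.6 in the replicates. Scn4a, the skeletal muscle gene, and Scn1a, a neuronal gene, stood near the bottom of the marked genes. Scn4a had 4.28, with 6.17 and 4.57, and Scn1a had 3.59, with 2.59 and 3.89. Scn2a, Scn3a, Scn7a, Scn10a and Scn11a had no peak at their 5′ end in either replicate. The second RefSeq start of Scn2a had peaks of 3.67 and 3.32 in the replicates and none in the replicated list. The 4 beta subunit genes, which encode small cell-adhesion-like partners of the pore, were all marked, with a median of 25.4. The lowest of them was Scn2b with 6.57, with 6.35 and 6.45 in the replicates, and Scn3b had 28.2, with 24.7 and 24.6.

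The pore-forming genes of voltage-gated potassium channels, which repolarise the membrane, were marked at 26 of 29 promoters, with a median of 23.6. All genes of Kcnb, Kcnc, Kcnd and Kcnq in the set were marked, as were 6 of 8 Kcna and 7 of 8 Kcnh genes. Kcnq3, a subunit of the neuronal M-current, had 35.4, with 34.7 in replicate 1 and 27.2 in replicate 2. Kcnc4 and Kcnc1, of fast-spiking neurons, had 41.1 (37.9 and 35.8) and 24.9 (22.3 and 21.2). Kcnh2, the gene of the cardiac repolarising hERG channel, had 32.2, with 29.9 and 26.2, and the highest value of the Kcnh genes was that of Kcnh8 at 37.0, with 32.3 and 33.2. The summit of the Kcnh8 peak lay at -1169 bp, upstream of the gene and outside the window. RefSeq starts of both Kcnh8 and Gm27217 lay within 1 kb of that peak, and no mm9 list marked Kcnh8. Kcnb2, a delayed rectifier, had 27.0, with 24.2 and 23.8. Kcnd2, of the A-type current of dendrites, had 24.7, with 22.3 and 21.5.

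Kcna genes were lower than most of these, with a median of 13.3 over the 6 marked ones. Kcna3 had 29.2, with 28.9 in replicate 1 and 24.0 in replicate 2. Kcna7 had 23.6, with 21.8 and 19.7. Kcna1, an axonal channel, had 12.9, with 9.27 and 12.7, so its replicates differed by more than those of Kcna3 relative to their level. Kcna10 was unmarked at every start, while Kcna2 was marked at its inner start, as given above. Kcnh1, the third unmarked gene of the group, had a peak of 32.4 centred 1831 bp inside the gene, and its RefSeq start there was marked.

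The silent subunits (Kcnf, Kcng, Kcns and Kcnv), which make no current alone and modify Kcnb channels, were marked at 9 of 10 promoters, with a median of 24.9. Kcns2 had 55.6, with 51.6 in replicate 1 and 46.1 in replicate 2, and Kcng1 had 48.6, with 44.5 and 41.7. These were the third and the sixth highest of the 102 marked channel genes. Kcns3 had 33.1, with 30.6 and 27.2, and Kcng3 had 29.3, with 26.2 and 25.4. Kcng4 was unmarked. The pore genes of potassium channels activated by calcium or sodium were all marked, 8 of 8, with a median of 26.5. Kcnma1, the large-conductance BK channel, led with 44.1, with 41.4 and 38.1. Kcnu1, a sperm channel, had 38.2, with 29.6 and 38.1, but its 5′ end lies 933 bp from that of Ash2l, which encodes a subunit of H3K4 methyltransferase complexes, and the summit of the peak lies at -1364 bp, upstream of Kcnu1. With a window of 500 bp Kcnu1 was unmarked. Kcnt2 and Kcnt1 had 34.5 (31.6 and 28.5) and 30.8 (26.9 and 27.5). The SK channel gene Kcnn2 had 14.1, with 12.7 and 13.0, and a peak of 72.9 inside the gene at 290184 bp from the 5′ end. Its vM1 starts on mm9 were marked with 52.4 in the pooled list, 70.7 in replicate 1 and 61.0 in replicate 2.

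Inward rectifiers, which hold the resting potential, were marked at 9 of 15 promoters, with a median of 17.1. Kcnj2, the main cardiac inward rectifier, had 37.2, with 36 and 29, and Kcnj12 had 33.8, with 30.3 and 30.6. The pore genes of ATP-sensitive channels, Kcnj8 and Kcnj11, had 17.5 (17.1 and 14.0) and 13.2 (13.7 and 9.59). Kcnj14 was the lowest marked channel gene at 3.31, with 2.94 and 3.63. Kcnj1, Kcnj13, Kcnj15 and Kcnj16, known from epithelia, were unmarked at every start, while Kcnj3, a cardiac and neuronal G-protein-gated channel, was marked at an inner start with 14.1.

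Two-pore channels, which carry background potassium current, were marked at 10 of 14 promoters, with a median of 16.9. Kcnk5, of the TALK group, had the highest signal of all 102 marked channel genes, 64.7 in the replicated list, 58.0 in replicate 1 and 54.7 in replicate 2, a mean of 56.4 ± 2.32 (SD, n = 2). Kcnk6 followed with 35.9, with 30.6 and 34.2. Kcnk3 and Kcnk12 both had 23.4. Kcnk1, Kcnk2 and Kcnk13 were unmarked at the 5′ end and marked at an inner RefSeq start, at 31.1, 19.6 and 16.5. Kcnk16, like Kcnk5 a channel of the TALK group, had a peak of 3.68 in replicate 2 only.

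Auxiliary potassium channel genes were marked at 11 of 17 promoters, with a median of 16.4 and a wide range. Kcnab2, a cytoplasmic beta subunit of Kcna channels, had 59.5, with 53.3 and 51.6, and its 5′ end lies 843 bp from that of Nphp4. Kcnmb4, the neuronal beta subunit of the BK channel, had 38.2, with 36.2 and 31.3, whereas Kcnmb2 and Kcnmb3 had 3.45 and 3.37. Single-span Kcne genes were marked at 2 of 5 promoters, at 4.31 for Kcne1 and 6.04 for Kcne1l. Kcne1 had 3.92 and 4.92 in the replicates. Kcne2 and Kcne4 were unmarked at every start. Among the calcium-binding Kcnip partners of Kcnd channels, Kcnip4 had 24.4 and Kcnip2 23, while Kcnip1 had 3.32 in replicate 2 only at its 5′ end.

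Across types of subunit, the auxiliary genes were marked at 30 of 37 promoters (81.1%) and the pore-forming and silent ones at 72 of 96 (75%), against 68.4% of all protein-coding genes. The Cacna1 and Scn alpha genes together with Kcnj and Kcne held 19 of the 31 unmarked genes. In 13 of the 25 subfamilies every gene was marked. No test was made between these groups.

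The replicates gave closely similar calls and values. Both marked 101 of the channel genes, 0 were marked in replicate 1 only, 3 in replicate 2 only (Kcnip1, Kcnk16 and Kcnmb2) and 29 in neither. At Kcnmb2 replicate 1 had a peak of 4.16 that started 1081 bp downstream of the 5′ end, just outside the window. Over the 101 genes the signals of the replicates had a Spearman rho of 0.957, beside 0.965 over all 13951 protein-coding genes marked in both. These are correlations across genes, which are not independent replicates. The median ratio of the higher to the lower replicate was 1.12 for channel genes and 1.08 for all genes. Replicate 1 was higher at 66 channel genes (65.3%, beside 63.8% of all genes). The replicates differed by over 1.5 times at 6 channel genes. Among these were Scn8a, Kcnj6 (19.1 and 11.4), Kcnd1 (19.8 and 13.2), Cacng1 (9.20 and 5.96) and Scn1a (2.59 and 3.89).

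**Figure D3:**
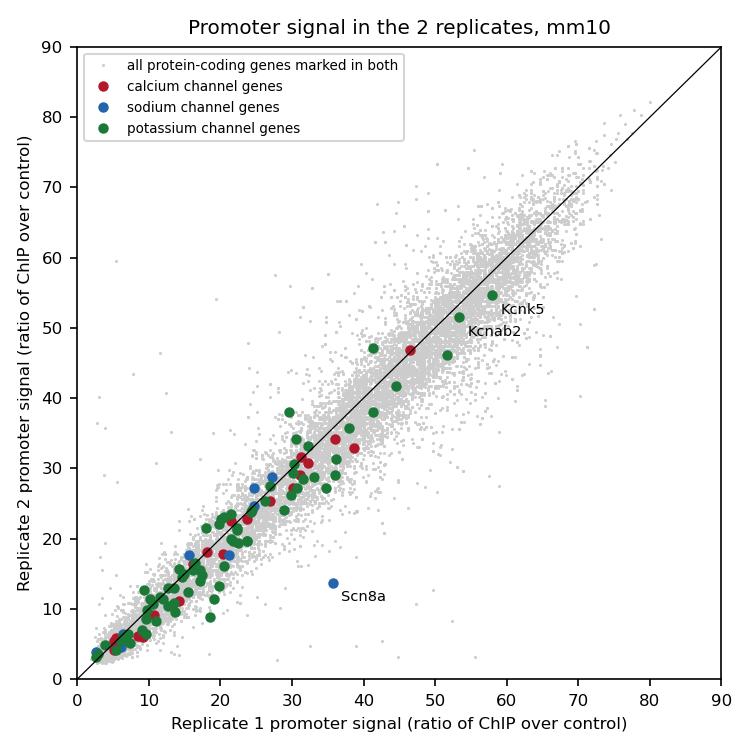
Promoter signal of each gene marked in both mm10 replicate lists, replicate 1 on the horizontal and replicate 2 on the vertical axis (ratio of ChIP over control). Grey points are all protein-coding genes, coloured points the 101 channel genes, and the line marks equal values. The channel genes follow the line with most points below 40, and Scn8a (35.7 and 13.7) lies farthest from it.

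To measure how far the mark spread, neighbouring peaks with a gap under 1 kb were merged into a domain. The median domain of marked channel genes was 2106.5 bp wide in the replicated list, 2031 bp in replicate 1 and 1759.5 bp in replicate 2, against 2428 bp for all marked genes in the replicated list. Domains of at least 5 kb were found at 9 of 102 channel genes (8.82%, against 13.5% of all marked genes), and domains of at least 10 kb at 4 (3.92%, against 2.66%). In the replicate lists 2 channel genes had a domain of at least 10 kb, 1.98% against 2.54% of all in replicate 1 and 1.92% against 2.17% in replicate 2, so the direction for such domains differed between the lists. Kcnk5 had a domain of 10346 bp, with 10291 bp in replicate 1 and 10273 bp in replicate 2, at chr14:20172210-20182555, and Kcnip2 one of 8412 bp, with 8349 and 8243 bp. These domains had nearly the same width in both replicates and held no other protein-coding 5′ end.

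The wide domains at Kcnn1 and Cacnb3 differed between the replicates. The domain at Kcnn1 was 13038 bp wide, with 4970 bp in replicate 1 and 8575 bp in replicate 2, and held the 5′ end of Ccdc124. At Cacnb3 the widths were 12389, 3495 and 11969 bp, and the peak at the 5′ end had a signal of only 6.94, while a peak of 39.3 starting 2105 bp inside the gene belonged to the same domain. On mm9 the regions at Kcnn1 and Cacnb3 were 2200 and 12400 bp wide in the pooled list. At Kcnk5 the mm9 width was 30400 bp in the pooled list, 24800 bp in replicate 1 and 13000 bp in replicate 2. On mm10 the pooled list gave 13880 bp at Kcnk5, wider than the replicated list and both replicate lists. Another protein-coding 5′ end lay inside the domain of 5 channel genes, Cacnb1, Kcnab2, Kcnab3, Kcnn1 and Kcnu1, and inside none of the other 97.

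**Figure D4:**
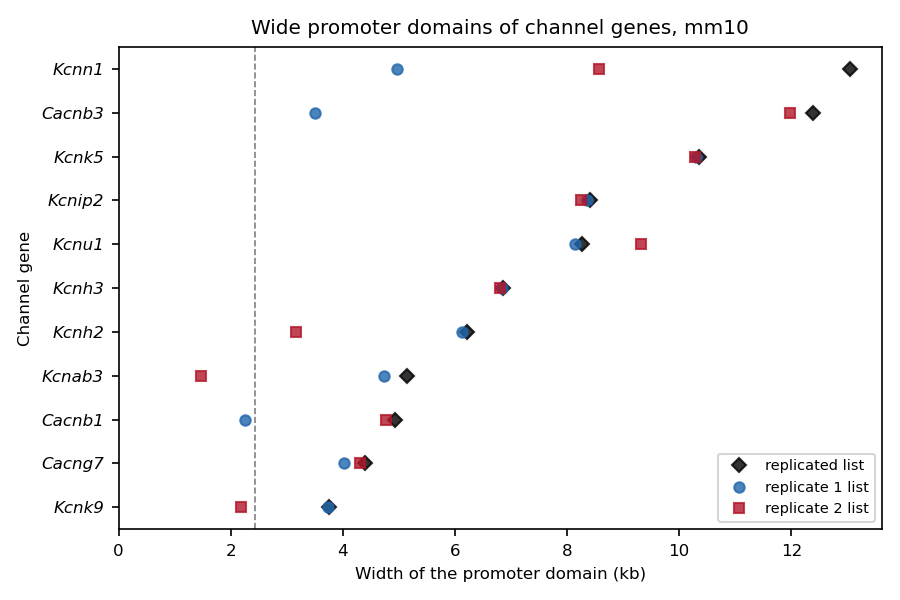
Width of the promoter domain (horizontal axis, kb) of channel genes with wide domains in the replicated mm10 list (vertical axis). Black diamonds are the replicated list, blue circles replicate 1, red squares replicate 2, with a dashed line at 2428 bp, the median over all marked genes. The values coincide at Kcnk5 and Kcnip2 and lie far apart at Kcnn1 and Cacnb3.

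The summit of the strongest promoter peak lay downstream of the 5′ end in 83.3% of marked channel genes, at a median of 329.5 bp, beside 85.2% and 274 bp for all marked genes.

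Channel genes that neighbour each other on a chromosome often differed. There were 14 runs of adjacent channel genes, with 34 genes in all. On chromosome 2 the genes Scn3a and Scn2a were both unmarked, and farther along the chromosome Scn1a (3.59) and Scn7a (unmarked) flanked Scn9a (18.5). On chromosome 9, Scn10a and Scn11a, which encode sodium channels of sensory neurons, were both unmarked at their 5′ ends. On chromosome 3, Kcna3 had 29.2 beside Kcna2 and Kcna10, both unmarked there. The 3 Kcna genes on chromosome 6, in contrast, had like values, 10.6 at Kcna5, 12.9 at Kcna1 and 13.7 at Kcna6. Gamma subunit genes had 8.34, 35.4 and 14.1 at Cacng1, Cacng4 and Cacng5 on chromosome 11, and 34.1, 5.03 and 26.2 at Cacng7, Cacng8 and Cacng6 on chromosome 7. Kcnk5 and Kcnk16 are neighbours on chromosome 14, Kcnj2 and the unmarked Kcnj16 on chromosome 11. Kcnj6 (17.1) neighbours the unmarked Kcnj15 on chromosome 16, and Kcnj5 (12.4) the unmarked Kcnj1 on chromosome 9. On chromosome 1, Kcnj10 had 17.8 and Kcnj9 was unmarked, on chromosome 9 Scn4b had 22.6 and Scn2b 6.57, and on chromosome 11 Kcnmb1 and Kcnip1 were both unmarked.

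**Figure D5:**
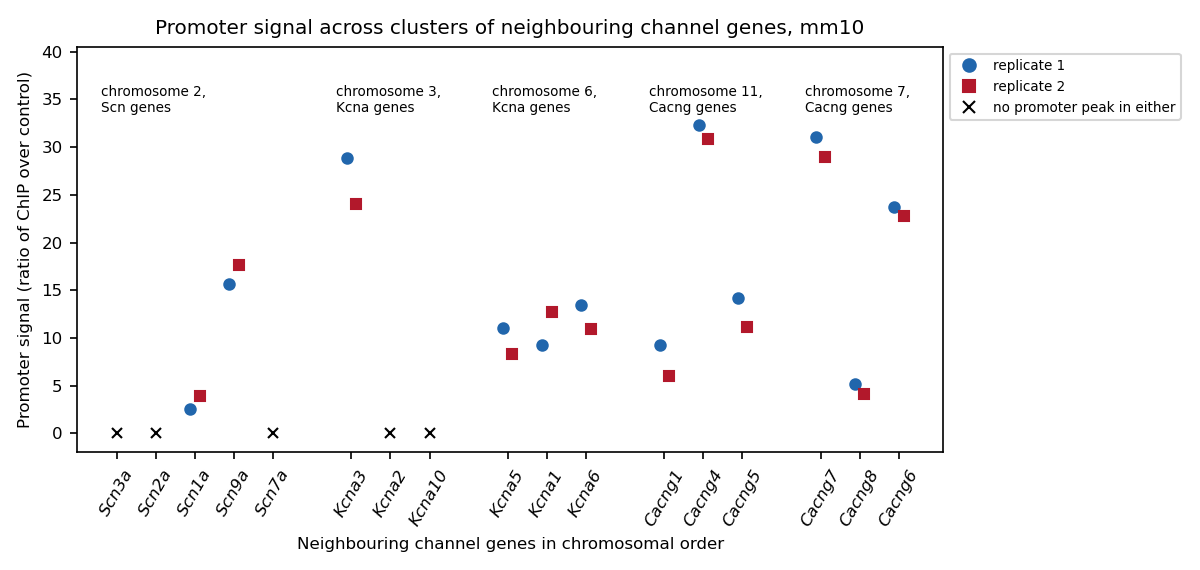
Promoter signal (vertical axis, ratio of ChIP over control) of neighbouring channel genes in chromosomal order (horizontal axis) on mm10. Circles are replicate 1, squares replicate 2, and crosses at 0 are genes without a promoter peak in either. The Scn genes on chromosome 2 include marked and unmarked ones, whereas the Kcna genes on chromosome 6 all lie between 8.29 and 13.5.

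Of the 31 genes unmarked at the 5′ end on mm10, 12 were marked at a vM1 start on mm9. They were Cacna1d, Cacna1h, Kcna2, Kcne3, Kcnh1, Kcnip1, Kcnj3, Kcnj9, Kcnk1, Kcnk2, Kcnk13 and Scn10a, and 4 of them, Cacna1h, Kcna2, Kcnh1 and Kcnk2, are the HCP genes without a mark on mm10. Kcnj9 had only 3.05 in the pooled mm9 list and was unmarked in both mm9 replicates, and Scn10a had only 4.02 in the pooled list. In the reverse direction Kcnb2, Kcnh8, Kcnma1, Scn4a and Scn8a were marked on mm10 and not on mm9. When every RefSeq promoter start on mm10 was read in place of the 5′ end, which was kept for the 34 channel genes without an entry, 110 channel genes were marked, against 70.5% of all genes, with 10 gained and 2 lost. A window of 500 bp gave 98 genes, against 66.7% of all, and a window of 2 kb gave 110, against 70.4% of all.

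In all, 115 of the 133 channel genes were marked at the 5′ end or a RefSeq start in the replicated mm10 list or at a vM1 start in the pooled mm9 list. The other 18 were marked at none of these. The share of all protein-coding genes under this combined rule was not computed, so these counts have no background beside them. The 18 genes were Cacna1f, Cacna1s, Cacna2d4, Kcna10, Kcne2, Kcne4, Kcng4, Kcnj1, Kcnj13, Kcnj15, Kcnj16, Kcnk16, Kcnmb1, Kcnrg, Scn2a, Scn3a, Scn7a and Scn11a. Of them 17 were LCP genes, Scn3a being the ICP one, and 12 had no replicated peak anywhere in the gene. Some of them had peaks in other lists, Kcnk16 in replicate 2 and the pooled list of mm10, Cacna1s in replicate 2 on mm9, and Scn2a at its second RefSeq start in both mm10 replicates. With a window of 2 kb in the replicated list, Cacna1f, Cacna1s and Kcng4 were marked. An unmarked call says that no peak passed the authors' threshold, not that the mark is absent.

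Genes related to these channels were read the same way, from lists chosen with the members. Other cation channels were marked at 12 of 18 promoters (66.7%, against 68.4% of all genes), with a median of 39.5. The pacemaker channel genes Hcn2, Hcn3 and Hcn4 were marked, at 40.0, 37.4 and 50.5. Each of them lay above the median of the voltage-gated and related genes. Against the median of 43.1 over all marked protein-coding genes, Hcn2 and Hcn3 lay below it and Hcn4 above it. Hcn2 and Hcn4, both HCP genes, lay below the median of 51.3 over all marked HCP genes. Partner proteins of the channels were marked at 14 of 19 promoters (73.7%), with a median of 19.8. The 8 genes of the complex around REST, a repressor known to bind many neuronal channel genes outside neurons, were all marked, with a median of 56.1. Most of them are HCP genes, and of all HCP genes 96.3% were marked, with a median of 51.3. Rest itself had 54.6, with 51.9 in replicate 1 and 50.3 in replicate 2, over a domain of 15688 bp. In the pooled mm9 list 7 of the 8 genes were marked, and Rest was unmarked.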

How the data were processed

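H3K4me3 ChIP-seq was available as peak lists of 1 group of 2 biological replicates, and sequencing depth is unknown. Per the deposited file descriptions, the mm10 lists were derived from each replicate with a control, from both replicates pooled, and as peaks replicated across them. Signal values, as the authors deposited them, are ratios, on mm10 of ChIP over control. The deposited lists also give a q-value, as −log10 on mm10 and as the value itself on mm9. The mm9 ratio has a denominator not given in the sources used here, as are aligner and peak caller. All mm9 edges lay on a 200 bp grid.

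The gene table gives no strand. Strand was taken from GENCODE vM1 by name for 18396 genes and by synonym for 2191, and 1300 of 21887 genes were left out. A gene's 5′ end ± 1 kb was its promoter, and a peak overlapping it by any base marked the gene. Peaks on chromosomes numbered 86758 in replicate 1, 83734 in replicate 2 and 62115 in the replicated list. CpG classes used mm9 windows from 1300 bp upstream to 200 bp downstream of the 5′-most vM1 start. Scripts ran in Python 3.11.15 with pandas 2.3.3, numpy 2.4.6, scipy 1.17.1 and matplotlib 3.10.9. The overlap and joining steps were checked on a short made-up list of peaks.

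The genes and lists were chosen with earlier results of these data known. Named genes were, per subfamily, the 2 with the highest signal, the widest domain and the first 2 unmarked in alphabetical order, a fixed set of well-known channels, and genes that differed between replicates or builds or neighbour each other. A few genes named for their values in 1 replicate or inside the gene were chosen after these were seen. The symbol left out by the rule and some genes that the naming rule takes are not reported here. With 1 group no test was made.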

Additional observations from a re-analysis of the deposited data

How the results depend on the processing

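The count of marked channel genes was 102, and from 98 to 110 over the alternatives that kept every gene, list or window choices included, and it was 99 of the genes with no other 5′ end within 2 kb. It moved to 45 when only the 59 principal subunits were counted. Leaving out 1 replicate gave 101 and 104. The median signal of 22.0 ranged from 17.6 to 20.1 when 1 replicate was left out, was 13.8 on the mm9 list, which has its own scale, and was 43002.7 when signal was multiplied by width, which is another quantity. The median width of 2106.5 bp ranged from 1759.5 to 2031 bp when 1 replicate was left out, and was 2400 bp on mm9, 1838.5 bp with no joining and 2369 bp with joining up to 3 kb. With the class from RefSeq promoters the marked HCP genes numbered 21 in place of 41 and the ICP genes 21 in place of 35, over fewer and other genes in each class. Reading RefSeq starts was added after seeing the data. No paired analysis was possible because there is only 1 group.

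Peak lists leave out whatever fell under the threshold, and without depth no limit can be set on an unmarked promoter. The 5′ end of a gene table is not always the start in use, which touches the 31 unmarked genes and the values of marked ones. In 43 channel genes the strongest peak in the gene exceeded the signal at the 5′ end, or the 5′ end had no peak. Some of these stronger peaks lay at starts of other genes, as at Cacna1c and Cacna1d. A peak within 1 kb can belong to another gene, as at Cacnb1, Kcnab2 and Kcnu1. The gap in signal between channel genes and all genes differed between the builds' lists, which differ in region width, scale and the starts read, and the part of each was not tested.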
